A study of Mus musculus with 2 samples.

Results

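The voltage-gated potassium channel genes were taken as every gene symbol made of Kcna, Kcnb, Kcnc, Kcnd, Kcnf, Kcng, Kcnh, Kcnq, Kcns or Kcnv and a number. This gave 40 of the 32285 genes in the list, and none was chosen by its measured value. Their transcripts were counted in single nuclei of the preoptic area (POA), the hypothalamic region that was targeted by ultrasound, from wild-type (WT) mice aged 6 to 9 weeks. The US- group had received sham treatment and the US+ group ultrasound, and tissue was taken about 1 h later in both. Each group was 1 library of nuclei from 4 pooled mice, sorted by their NeuN signal, which marks nuclei of neurons. Differences among mice were therefore not measured, and any difference between the groups compares 2 libraries.

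Voltage-gated potassium (Kv) channels open when the membrane depolarizes and let potassium leave the neuron, which ends the action potential and sets how soon the next one can follow. Kv1 (Kcna) channels act at low voltages in axons, Kv2 (Kcnb) channels carry the slow delayed current of cell bodies, Kv3 (Kcnc) channels switch fast enough for high firing rates, and Kv4 (Kcnd) channels carry the transient A-type current of dendrites. Kv7 (Kcnq) channels carry the M-current that steadies the resting potential, Kv10 to Kv12 (Kcnh) form the ether-à-go-go (EAG), EAG-related (ERG) and EAG-like (ELK) channels, and the silent subunits (Kcnf, Kcng, Kcns, Kcnv) form no channel alone and join Kv2 subunits.

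Nuclei with 200 to 7500 genes, at most 5% mitochondrial UMIs and at least 2000 UMIs were used, 11040 of 11725 barcodes in US- and 9912 of 12075 in US+. A UMI (unique molecular identifier) stands for 1 captured transcript. Levels are CPM, the UMIs of a gene per 1000000 UMIs of the same nuclei. Nuclei were sorted into 7 types by marker genes that are not potassium channels, and those that met more than 1 type (720 and 458) were left out. The types held 1092 (US-) and 327 (US+) Rarb/Drd1, 798 and 245 Rarb/Drd2, 437 and 291 Lhx6/Sox6, 1176 and 690 Lhx8, 571 and 879 Esr1, 47 and 39 Skor2/Slc17a6, and 124 and 124 Tcf7l2/Slc17a6 nuclei. Another 6075 and 6859 nuclei met no type. The libraries shared 29 of 23800 barcodes.

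The types were checked against other markers. Both Rarb/Drd types carried genes known from striatal projection neurons rather than the POA: Rgs9 was at 351 (US-) and 287 CPM (US+) in Rarb/Drd1 and 421 and 246 in Rarb/Drd2 nuclei, and was between 39.1 and 105 CPM in the other types. Adora2a was at 105 and 55.7 CPM in Rarb/Drd2 nuclei. Lhx8 nuclei included cells with Chat, the gene of acetylcholine synthesis, at 73.8 and 45.3 CPM. Foxb1 was not detected in Skor2/Slc17a6 nuclei, which had Tmem163 at 349 and 357 CPM. The types are called by their defining genes below. All 5 neuronal markers were detected in each library, with sums from 2959 to 5071 CPM over the types. All 6 astrocyte markers were detected too. In US- their sum ran from 35.0 CPM (Lhx8) to 430 CPM (Rarb/Drd1), of which Slc4a4 made up 417. In US+ it ran from 9.98 CPM (Skor2/Slc17a6) to 338 CPM (Rarb/Drd1, with Slc4a4 at 322) and was 266 CPM in Tcf7l2/Slc17a6 nuclei, against 56.1 CPM in those of US-. The 6 oligodendrocyte markers summed to between 40.6 and 139 CPM and the 5 microglial ones to between 109 and 180.5 CPM, mostly P2ry12. The part of these other cells in the results was not tested.

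Together the 40 genes held 0.741% of the UMIs in the types. Of the 40, 34 passed the filter on low counts, which left out Kcna3, Kcna5, Kcna7, Kcna10, Kcng4 and Kcns1, and Kcna7 had no UMI in any type. The genes span from 1.902 to 563.5 kb (GRCm38), and the 11 genes of 100 kb or more held 92.97% of the channel UMIs. Across the 40 genes, span and UMIs had a Spearman rho of 0.754. This is a description across genes that share the same nuclei. Levels of different genes are therefore compared only per 10 kb of span. On that scale Kcna1 was highest at 76.5 CPM per 10 kb, followed by Kcnd2 at 50.4 and Kcna4 at 44.6, and Kcnq5 stood at 22.5. Kcna1 and Kcna4 are short, at 5.988 and 7.864 kb, and division by span raises short genes most. Whether UMIs grow in proportion to span was not tested, so this order depends on the scale.

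The first question was whether the types differ in these channels. UMIs were summed per type and library, which gave 14 sums, and all genes were tested in 1 model with the library as a block (edgeR quasi-likelihood test). A gene was called at a Benjamini-Hochberg adjusted p under 0.05 over 16092 genes and a difference of at least 2-fold. The libraries differ in treatment, so the spread in this test holds both the difference between pools and any treatment effect that differs between types. The p-values measure only the spread between these 2 pools. Of the 34 channel genes tested, 22 differed among the 7 types, where 26.7% of all genes tested were called. The median ratio of the highest to the lowest type, with 1 CPM added, was 3.11 for the channel genes, which had a median of 1811 UMIs, and 1.84 for all genes, with 1171 UMIs. Rarb/Drd1 or Rarb/Drd2 nuclei held the highest mean level of 16 of the 34 genes and the lowest of 16. The highest type was the same in both libraries for 15 of 34 genes and the lowest for 17.

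Against the mean of the other 6 types, Rarb/Drd1 nuclei had 10 genes higher and 5 lower, where the background over all genes was 5.84% and 3.98%. Rarb/Drd2 nuclei had 8 higher and 3 lower (background 5.38% and 2.5%), and the mean they are set against includes the other Rarb/Drd type. Lhx6/Sox6 nuclei had 2 higher and 1 lower (3.07% and 1.72%), Lhx8 nuclei 3 and 1 (2.53% and 1.21%) and Esr1 nuclei 3 and 2 (2.11% and 0.82%). Skor2/Slc17a6 nuclei had 0 higher and 1 lower (0.659% and 1.28%). Tcf7l2/Slc17a6 nuclei had 0 of either (2.01% and 0.783%). There, 9 genes had an unadjusted p under 0.05 by edgeR and 7 by DESeq2, which called 0 as well, and 4 and 5 had an adjusted p under 0.05 at less than 2-fold. The 39 calls were made with both libraries. Of these contrasts, 35 stayed at 2-fold or more in the US- library alone and 18 in the US+ library alone, where the spread cannot be estimated. Here and below, folds in 1 library are of CPM with 1 CPM added, while the calls use fitted folds. With 1 CPM added, some calls were under 2-fold with both libraries too. Kcna1 in Rarb/Drd1 nuclei was at 0.83 on the log2 scale against a fitted 1.03, and Kcng2 in Rarb/Drd2 nuclei at 0.81 against 2.02.

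**Figure D1:**
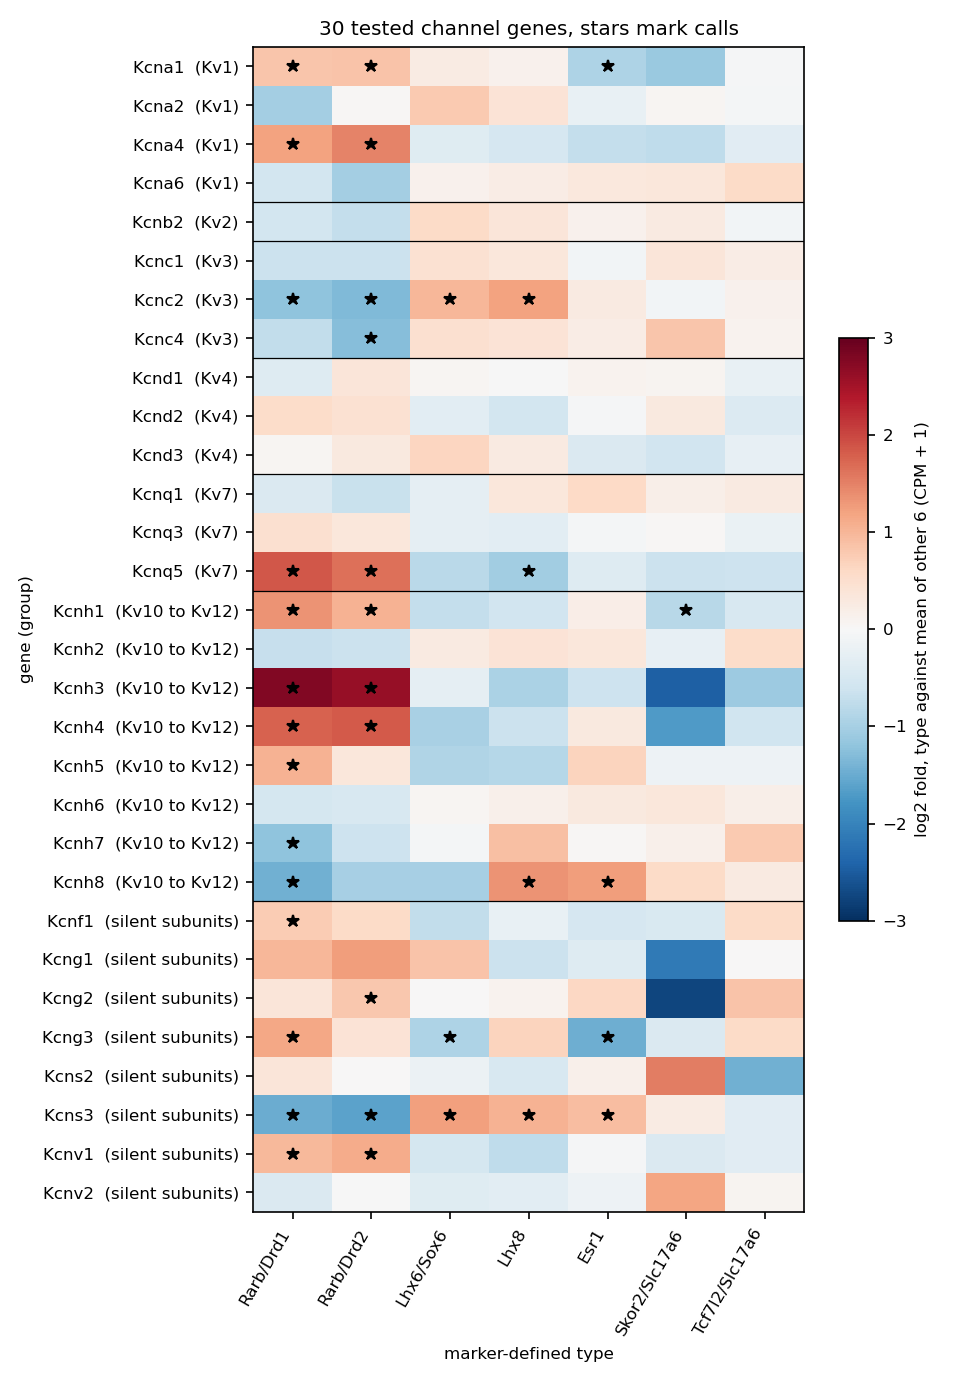
Difference of each type (columns) from the mean of the other 6 types for 30 of the 34 channel genes tested (rows, by group), as log2 fold of CPM with 1 CPM added, averaged over both libraries (colour, from -3 to 3). Stars mark 37 of the 39 calls at an adjusted p under 0.05 and 2-fold, of which 25 lie in the columns of Rarb/Drd1 and Rarb/Drd2.

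All 4 of the 8 Kv1 genes that could be tested differed among types. Kcna4, a rapidly inactivating Kv1 channel (chr2:107290639-107298502, plus strand), was at 64.9 (US-) and 46.0 CPM (US+) in Rarb/Drd1 nuclei and at 73.9 and 57.4 CPM in Rarb/Drd2 nuclei. In the other 5 types it was between 10.5 and 28.1 CPM, so the 2 sets of sums did not overlap. Its log2 fold over the other types was 1.45 (SE 0.12, adjusted p = 5.7e-08, edgeR) in Rarb/Drd1 and 1.74 (SE 0.12, adjusted p = 5.2e-09) in Rarb/Drd2 nuclei. Kcna1, a Kv1 channel of axons, was at 77.5 and 41.2 CPM in Rarb/Drd1, 79.3 and 40.7 in Rarb/Drd2, 52.5 and 30.8 in Lhx6/Sox6, 41.0 and 36.0 in Lhx8, and 20.3 and 20.2 CPM in Esr1 nuclei. It was called higher in both Rarb/Drd types, by 1.03 and 1.07 on the log2 scale, and lower in Esr1 nuclei, at -1.02. The level in US+ Rarb/Drd nuclei lay within the range of the other types, and with US+ alone these folds were 0.57, 0.55 and -0.59. The Esr1 call was not made once the Rarb/Drd sums were left out. Kcna2, which joins Kcna1 in axonal channels, followed another order. It was highest in Lhx6/Sox6 nuclei at 36.2 and 36.7 CPM and lowest in Rarb/Drd1 nuclei at 13.9 and 10.0 CPM. It differed among types (adjusted p = 0.00047), with no single type called. Kcna6 was also called among types (adjusted p = 0.0010), from 14.4 CPM in US- Rarb/Drd2 to 48.5 CPM in US+ Tcf7l2/Slc17a6 nuclei. It was named, like the other genes outside the rule for named genes, after its values were seen.

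Kcnb2, a Kv2 gene, was not called. It ranged from 433 CPM in US- Rarb/Drd2 to 1115 CPM in US- Lhx6/Sox6 nuclei (adjusted p = 9.7e-05), but the fitted difference between the highest and the lowest type was under 2-fold, at 0.95 on the log2 scale.

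Among the Kv3 genes, Kcnc2 and Kcnc4 were called. Kcnc2 (chr10:112271121-112467024, plus strand) was low in both Rarb/Drd types, at 169 and 233 CPM in Rarb/Drd1 and 119.6 and 257 CPM in Rarb/Drd2 nuclei. It was at 736 and 768 CPM in Lhx6/Sox6 nuclei, at 897 and 796 CPM in Lhx8 nuclei, and between 391 and 500 CPM in the other 3 types. The Rarb/Drd sums lay below all others. Its log2 fold was -1.04 (SE 0.23, adjusted p = 0.0095) in Rarb/Drd1, -1.18 (SE 0.23, adjusted p = 0.0068) in Rarb/Drd2, 1.04 (SE 0.19, adjusted p = 0.0085) in Lhx6/Sox6 and 1.19 (SE 0.19, adjusted p = 0.0042) in Lhx8 nuclei. In the US- library alone the fold in Rarb/Drd2 was -1.93. In the US+ library alone it was -0.90, and the folds in Lhx6/Sox6 and Lhx8 were 0.93 and 0.99. The Lhx6/Sox6 and Lhx8 calls were not made once the Rarb/Drd sums were left out. Kcnc4 was between 2.40 and 5.15 CPM in the Rarb/Drd sums and between 7.65 and 16.8 CPM in the others, and was called lower in Rarb/Drd2 nuclei at -1.48 (SE 0.29, adjusted p = 0.00094), with -0.95 in US+ alone. Kcnc1 had an adjusted p of 0.00038 and a fitted difference of 0.83 on the log2 scale.

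Of the 3 Kv4 genes, Kcnd2 and Kcnd3 were called among types, with no single type called. Kcnd2, a main A-type channel of dendrites, was high in every type, from 1706 CPM in US- Tcf7l2/Slc17a6 to 3755 CPM in US- Rarb/Drd1 nuclei (adjusted p = 7.6e-07). Kcnd3 was highest in Lhx6/Sox6 nuclei, at 327 and 290 CPM, and lowest in Skor2/Slc17a6 nuclei, at 151 and 149.7 CPM (adjusted p = 3.5e-07). Kcnd1 was between 2.57 and 7.31 CPM and was not called.

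Among the Kv7 genes, Kcnq5 stood apart in both Rarb/Drd types. Kcnq5 (chr1:21398403-21961942, minus strand) was at 2959 and 2078 CPM in Rarb/Drd1 nuclei and at 2665 and 1758 CPM in Rarb/Drd2 nuclei. In the other 10 sums it was between 421 and 658 CPM, with no overlap. Its log2 fold was 2.05 (SE 0.09, adjusted p = 4.0e-12) in Rarb/Drd1 and 1.84 (SE 0.09, adjusted p = 2.2e-11) in Rarb/Drd2 nuclei, the smallest standard errors among the calls. It was called lower in Lhx8 nuclei, at -1.08, which was -0.93 with US+ alone, and -0.34 and not called once the Rarb/Drd sums were left out. Kcnq3, a subunit of the M-current, had an adjusted p of 0.00062 with a difference under 2-fold, at 0.88 on the log2 scale. Kcnq1, which is best known from the heart, was between 3.41 and 12.5 CPM and was not called.

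**Figure D2:**
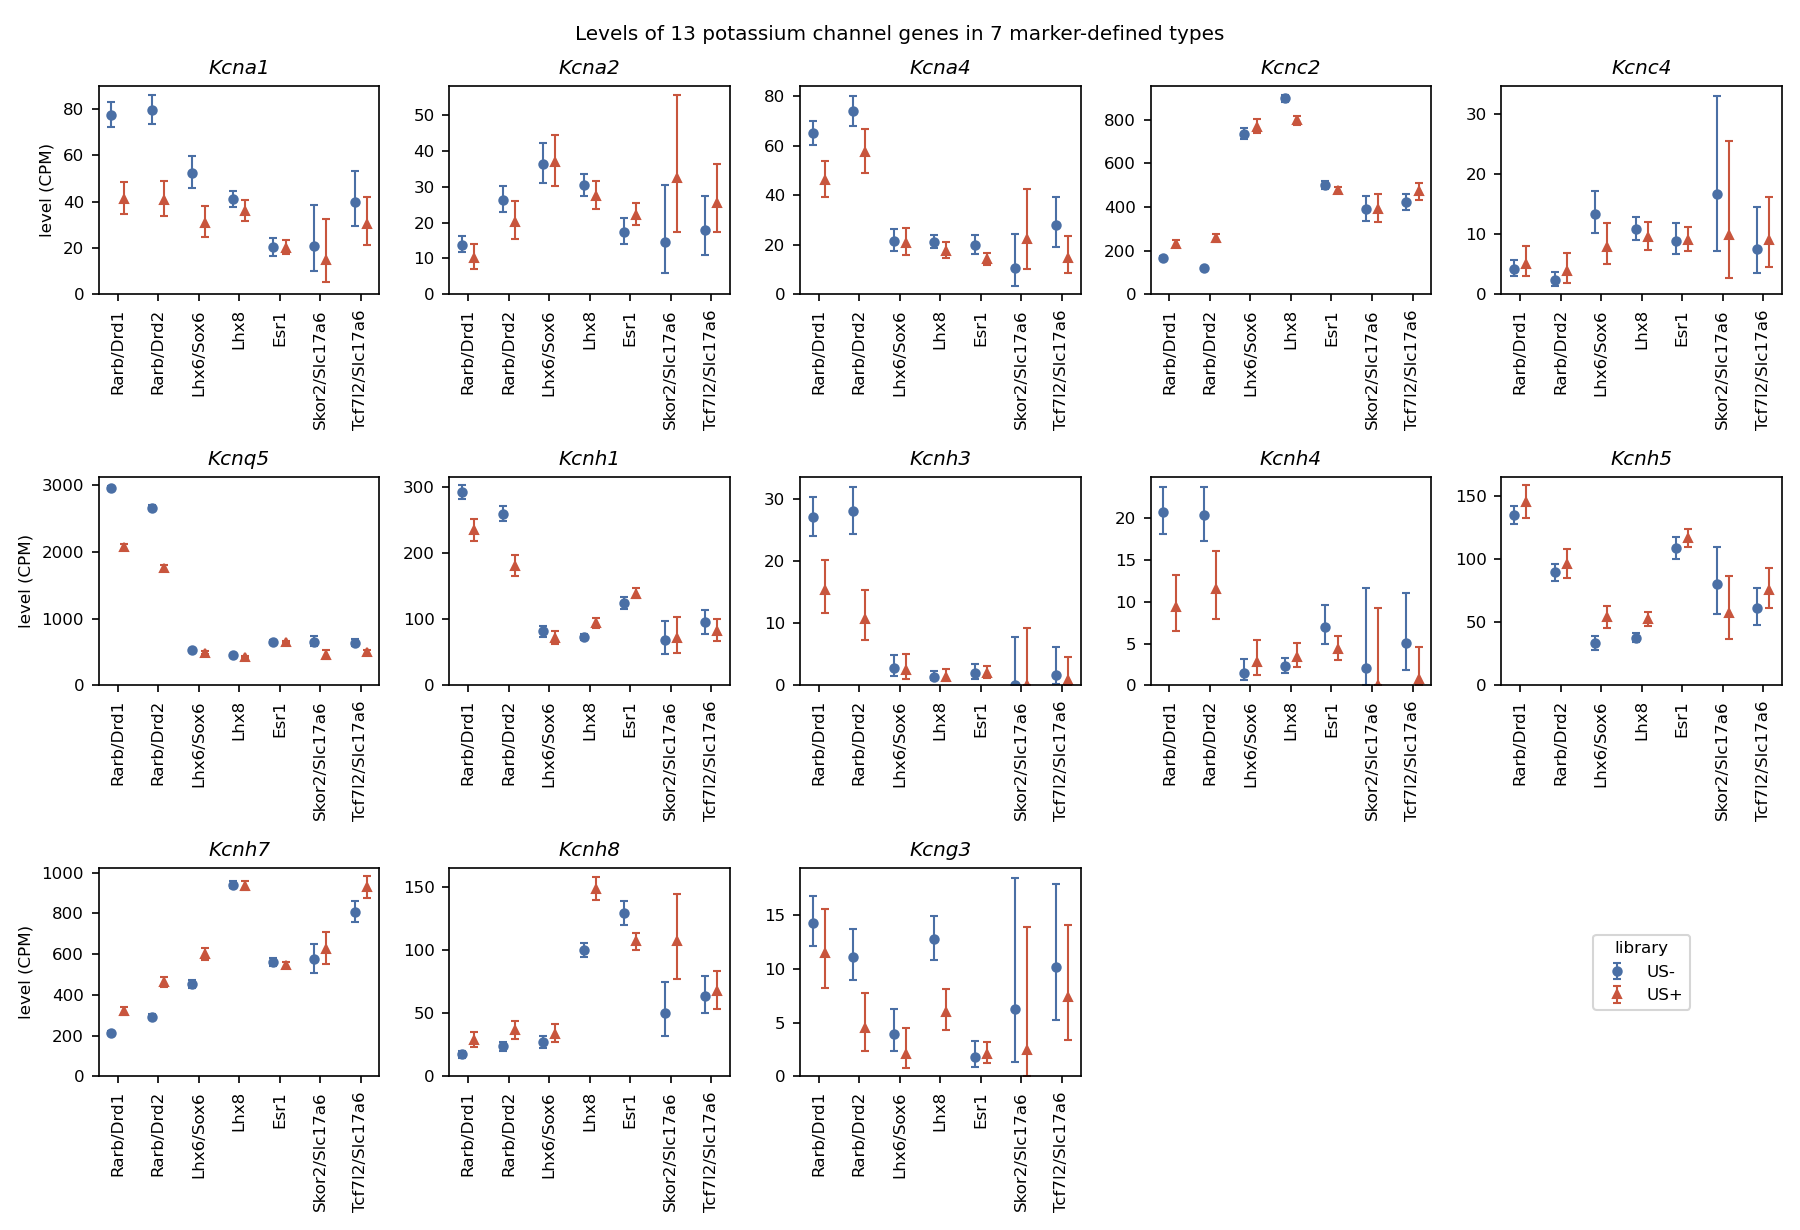
Level (CPM, linear axes from 0) of 13 of the 14 channel genes with the largest ratio between types, in 7 types, for US- (blue circles) and US+ (red triangles). Bars are exact 95% Poisson intervals and cover counting error only. The 4 Rarb/Drd sums stand above the other 10 for Kcna4, Kcnq5, Kcnh1, Kcnh3 and Kcnh4 and below them for Kcnc2 and Kcnc4.

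The Kcnh family held 7 called genes of 8, and its members divided between types. Within the ELK channels, Kcnh3 and Kcnh4 were high where Kcnh8 was low. Kcnh3 (chr15:99224861-99242817, plus strand) was at 27.1 and 15.4 CPM in Rarb/Drd1 nuclei and at 28.0 and 10.8 CPM in Rarb/Drd2 nuclei. Elsewhere it was at most 2.85 CPM, and it had no UMI in either Skor2/Slc17a6 sum. Against the limit of 3 UMIs per library, it was at least 4.30-fold (US-) and 2.06-fold (US+) higher in Rarb/Drd1 than in Skor2/Slc17a6 nuclei, and at least 4.45-fold and 1.44-fold higher in Rarb/Drd2 nuclei. Against the 5 remaining types, in a fit without the Skor2/Slc17a6 sums that was added after the data were seen, its log2 fold was 3.05 (adjusted p = 4.9e-08) in Rarb/Drd1 and 2.93 in Rarb/Drd2 nuclei. Kcnh4 was at 20.8 and 9.43 CPM in Rarb/Drd1 and 20.3 and 11.5 CPM in Rarb/Drd2 nuclei and at most 7.01 CPM elsewhere, the highest of these in US- Esr1 nuclei. Its fold in the same fit was 2.0 and 2.09, and its US+ Skor2/Slc17a6 sum had no UMI.

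Kcnh8 (chr17:52602709-52979194, plus strand) was at 129.6 and 107 CPM in Esr1 nuclei and at 100.4 and 149 CPM in Lhx8 nuclei. In Skor2/Slc17a6 nuclei it was at 50.4 and 107 CPM, the latter within the range of Esr1 and Lhx8 nuclei. In Tcf7l2/Slc17a6 nuclei it was at 63.8 and 67.4 CPM. It was at 17.5 and 28.9 CPM in Rarb/Drd1, 23.9 and 36.5 in Rarb/Drd2 and 27.2 and 33.9 CPM in Lhx6/Sox6 nuclei. The last 3 types overlap. It was called higher in Lhx8 (1.32, SE 0.15, adjusted p = 0.00022) and Esr1 nuclei (1.20, SE 0.16, adjusted p = 0.00054) and lower in Rarb/Drd1 nuclei (-1.34, SE 0.21, adjusted p = 0.00054). The Lhx8 and Esr1 calls were not made in the fit without the Rarb/Drd sums described below. In US+ alone the fold in Esr1 nuclei was 0.87.

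The EAG channels Kcnh1 and Kcnh5 were both highest in Rarb/Drd1 nuclei. Kcnh1 was at 292 and 234 CPM there and at 259 and 181 CPM in Rarb/Drd2 nuclei, above the 69.4 to 139 CPM of the other sums, with log2 folds of 1.54 (SE 0.11, adjusted p = 1.0e-07) and 1.26 (SE 0.12, adjusted p = 1.7e-06). With US+ alone the fold in Rarb/Drd2 was 0.78. Kcnh1 was also called lower in Skor2/Slc17a6 nuclei (-1.03, SE 0.22, adjusted p = 0.015), a call that either library alone puts under 2-fold (-0.92 in US- and -0.75 in US+). Kcnh5 was at 134 and 145 CPM in Rarb/Drd1, 108 and 117 CPM in Esr1 and 89.3 and 95.7 CPM in Rarb/Drd2 nuclei. It was between 33.2 and 53.7 CPM in Lhx6/Sox6 and Lhx8 nuclei. It was called in Rarb/Drd1 nuclei (1.24, adjusted p = 3.3e-08).

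Of the ERG channels, Kcnh7 (chr2:62693414-63184287, minus strand) was at 941 and 936 CPM in Lhx8 and 807 and 928 CPM in Tcf7l2/Slc17a6 nuclei. It was at 214 and 322 CPM in Rarb/Drd1 nuclei, where it was called lower (-1.03, SE 0.13, adjusted p = 3.6e-05), and at 292 and 462 CPM in Rarb/Drd2 nuclei. The last value overlaps US- Lhx6/Sox6 nuclei at 454 CPM. Kcnh2, the ERG channel of the heart, was between 3.43 and 11.1 CPM and was called among types at an adjusted p of 0.047. Kcnh6 was between 7.65 and 16.5 CPM and was not called.

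RefSeq promoter windows were at hand for 25 of the 40 genes. Those of Kcna4, high in the Rarb/Drd types, and of Kcnh8, called lower in Rarb/Drd1 nuclei, are shown because the pair differed in opposite directions in Rarb/Drd1 nuclei. Each is the 250 bases before the RefSeq start in GRCm38.p6, read 5′ to 3′ on the gene's strand, chr2:107290339-107290588 and chr17:52602459-52602708 on the plus strand. Capitals mark the GC box GGGCGG on either strand.
Kcna4: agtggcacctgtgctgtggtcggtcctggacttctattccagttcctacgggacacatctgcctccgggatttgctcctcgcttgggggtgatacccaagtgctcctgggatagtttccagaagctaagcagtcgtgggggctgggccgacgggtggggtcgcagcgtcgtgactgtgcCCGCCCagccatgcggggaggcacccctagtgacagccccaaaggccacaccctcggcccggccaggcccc
Kcnh8: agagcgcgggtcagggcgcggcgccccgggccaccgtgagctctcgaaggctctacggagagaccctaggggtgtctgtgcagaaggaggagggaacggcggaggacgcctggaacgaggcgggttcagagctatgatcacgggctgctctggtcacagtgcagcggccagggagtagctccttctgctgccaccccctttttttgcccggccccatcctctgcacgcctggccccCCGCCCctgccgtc
Each window held 1 GC box, which 32.7% of all 32851 windows and windows of 16 of the 25 genes held. Neither held the nuclear receptor hexamer AGGTCA on either strand, which was in 14% of all windows and in windows of 3 of the 25 genes. The motifs do not overlap each other in sequence, and a match is a description of letters and not of binding.

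Of the 10 silent subunit genes, 8 were tested and 5 were called. Kcng3 was at 14.3 and 11.4 CPM in Rarb/Drd1, 12.8 and 5.98 CPM in Lhx8, 10.2 and 7.40 CPM in Tcf7l2/Slc17a6, and 1.80 and 2.05 CPM in Esr1 nuclei. It was called higher in Rarb/Drd1 (1.46, SE 0.22, adjusted p = 6.8e-05) and lower in Esr1 (-1.85, SE 0.33, adjusted p = 0.0011) and Lhx6/Sox6 nuclei (-1.08, SE 0.35, adjusted p = 0.047). In US+ alone these were 1.41, -0.96 and -0.94, and in US- alone the last was -0.88. Kcns3 was at most 1.74 CPM in the Rarb/Drd sums and between 7.55 and 13.9 CPM in Lhx6/Sox6, Lhx8 and Esr1 nuclei. It was called in all 5 of these types, at -1.73 and -2.23 in Rarb/Drd1 and Rarb/Drd2 and at 1.54, 1.36 and 1.11 in the other 3. With US+ alone the folds in Rarb/Drd2, Lhx8 and Esr1 were -1.21, 0.70 and 0.87, and with US- alone the fold in Lhx6/Sox6 was 0.85. Once the Rarb/Drd sums were left out, Kcns3 was called neither in a single type nor among types (adjusted p = 0.15, edgeR). Kcnv1 was at 10.5 CPM in US- Rarb/Drd1 and in US- Rarb/Drd2 nuclei, but at 2.86 and 4.18 CPM in those of US+, against 1.54 to 3.40 CPM elsewhere. Its calls (1.50 and 1.64) thus rested on US-, and with US+ alone the folds were 0.11 and 0.60. Kcnf1 was called in Rarb/Drd1 nuclei (1.21, adjusted p = 0.024), at 4.35 and 8.00 CPM, with 0.99 in US- and 0.78 in US+ alone. The call of Kcng2 in Rarb/Drd2 nuclei rested on Skor2/Slc17a6 sums without a UMI, and was 0.72 and not called without them, and 0.39 with US+ alone.

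Since most calls involved the Rarb/Drd types, the 5 other types were fitted alone, an alternative chosen after the data were seen. Then 7 of 32 channel genes tested were called among types, against 13.9% of 15279 genes. Among them were Kcng3, Kcnh8, Kcna1, Kcnh5, Kcnc2 and Kcnd3. Kcnh8 was lower in Lhx6/Sox6 nuclei than in the other 4 types, at -1.5 on the log2 scale (adjusted p = 0.021), with a mean of 30.6 CPM against 124.6 CPM in Lhx8 nuclei. Kcng3 was higher in Lhx8 (1.27, adjusted p = 0.00088) and lower in Esr1 nuclei (-1.51, adjusted p = 0.0075), with means of 9.37 and 1.93 CPM. Kcnh5 was highest in Esr1 (112 CPM) and lowest in Lhx6/Sox6 nuclei (43.4 CPM). Kcnc2 was highest in Lhx8 (847 CPM) and lowest in Skor2/Slc17a6 nuclei (391 CPM). Kcnh4 was called higher in Esr1 nuclei (1.34, adjusted p = 0.043), in which its mean was 5.67 CPM, but was not called among the 5 types (adjusted p = 0.12), and its Skor2/Slc17a6 sums held 1 and 0 UMIs. A call of Kcng2 there rested on Skor2/Slc17a6 sums without a UMI. Of the calls counted above for these types against the other 6, only 1 was made again, that of Kcng3 in Esr1 nuclei. The other 12 were not, so they depended on the Rarb/Drd sums in the mean they were set against.

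Between Rarb/Drd1 and Rarb/Drd2 nuclei, the pair that shares Rarb, 0 of 34 genes were called in either direction (background 0.423% and 0.342%). By edgeR 5 had an unadjusted p under 0.05, by DESeq2 4, which also called 0. Kcna2 was lower in Rarb/Drd1 nuclei by -0.95 on the log2 scale (SE 0.21, adjusted p = 0.025), at 13.9 and 10.0 against 26.3 and 20.2 CPM. Kcnh5 was higher there by 0.58 (SE 0.14, adjusted p = 0.037). Both differences were under 2-fold.

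Auxiliary genes, which encode subunits and partners that Kv channels bind, were taken from a list of 22. Of these 17 were tested and 13 were called among types, where 26.7% of all genes were. For single types the background was 5.84% higher and 3.98% lower in Rarb/Drd1 and 5.38% and 2.5% in Rarb/Drd2 nuclei. Kcnip2 and Kcnip3, calcium-binding subunits of Kv4 channels, were high in the Rarb/Drd types. Kcnip2 was at 98.5 and 82.3 CPM in Rarb/Drd1 and 123 and 80.0 CPM in Rarb/Drd2 nuclei, with log2 folds of 1.89 and 2.11 (SE 0.13 and 0.14, adjusted p = 3.3e-08 and 1.0e-08), and at 48.3 CPM or less elsewhere. Kcnip3 was at 112 and 62.9 CPM and at 140.6 and 58.1 CPM, with folds of 1.56 and 1.79 (SE 0.26, adjusted p = 0.0025 and 0.0015), and at most 35.7 CPM elsewhere. Kcnab1, a beta subunit of Kv1 channels, was at 771 and 612 CPM and at 779 and 555 CPM, with folds of 1.87 and 1.82 (SE 0.14, adjusted p = 3.8e-06 and 6.3e-06), and at most 274 CPM elsewhere. Cntn2, which holds Kv1 channels beside the node of Ranvier, was lower in Rarb/Drd1 nuclei (-1.13, adjusted p = 4.3e-06), at 11.1 and 10.0 CPM. It was as low in Rarb/Drd2 nuclei, at 12.4 and 10.8 CPM, though not called there, and lay between 27.2 and 39.9 CPM outside the Rarb/Drd types. Lgi3, a secreted partner of Kv1 complexes, was lower in Rarb/Drd1 nuclei (-1.55, adjusted p = 3.3e-05), at 4.44 and 7.15 CPM, and was at 13.3 and 8.35 CPM in Rarb/Drd2 nuclei.

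The share of nuclei with at least 1 UMI was compared after every nucleus had been thinned at random to 2000 UMIs. In US-, Kcnq5 was found in 92.4% of Rarb/Drd1 nuclei (exact 95% interval 90.7 to 93.9) and in 34.7% of Lhx8 nuclei (32.0 to 37.5), and in 96.6% and 58.7% before thinning. Kcnc2 was found in 68.2% of US- Lhx6/Sox6 nuclei (63.6 to 72.5) and 10.3% of US- Rarb/Drd2 nuclei (8.26 to 12.6), and in 93.4% and 23.7% before thinning. Kcnh8 was found in 17.9% of US- Esr1 nuclei (14.8 to 21.3) and 2.20% of US- Rarb/Drd1 nuclei (1.41 to 3.25), and in 35.0% and 6.04% before. Kcnh3 was found in 6.04% of US- Rarb/Drd1 nuclei (4.70 to 7.63) and 0.425% of US- Lhx8 nuclei (0.138 to 0.989), and in 22.3% and 1.45% before. In US+, thinned, the same pairs of types stood at 85.6% and 37.4% for Kcnq5 and at 66.7% and 22.0% for Kcnc2. For Kcnh8 they stood at 13.9% and 3.36%, and for Kcnh3 at 3.06% and 0.290%. The intervals cover counting error only. Median depths were 8623 UMIs in Rarb/Drd1, 8580.5 in Rarb/Drd2, 9266 in Lhx6/Sox6, 9380 in Lhx8 and 8946 in Esr1 nuclei of US-.

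The second question was how the channel genes differed between US+ and US-. With 1 library for each condition there is no test, and ratios carry exact 95% intervals for counting error alone. Over all nuclei, 37 channel genes had at least 50 UMIs, of which 18 were higher and 19 lower in US+, with a median ratio of 0.976 against 1.04 for all 20112 genes. At 1.5-fold or more, 0 were higher, where the background was 7.67%, and 8 were lower, where it was 3.35%. The 8 were Kcnh3, Kcnh4, Kcng3, Kcnv1, Kcnq5, Kcna1, Kcna4 and Kcng1. Kcnh3 had a level of 10.2 (US-) and 3.24 CPM (US+), a ratio of 0.316 (0.276 to 0.362). The ratios of Kcnh4, Kcng3 and Kcnv1 were 0.492 (0.433 to 0.558), 0.519 (0.455 to 0.590) and 0.538 (0.455 to 0.635). At the upper end were Kcnf1 at 1.44 (1.23 to 1.69), Kcng2 at 1.37 (1.22 to 1.54) and Kcna5 at 1.37 (1.05 to 1.78).

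The mix of nuclei moved with these ratios. Rarb/Drd1 nuclei numbered 1092 in US- and 327 in US+, and Rarb/Drd2 nuclei 798 and 245, while 7 of the 8 lower genes, Kcng1 aside, were called higher in a Rarb/Drd type. Over the 7 types at equal weight, with 1 CPM added, the geometric mean of the US+ over US- ratio was 0.755 for Kcnh3, 0.621 for Kcnh4, 0.644 for Kcng3, 0.770 for Kcnv1, 0.802 for Kcnq5, 0.698 for Kcna1 and 0.866 for Kcna4. On that scale 3 of the 37 genes were lower by 1.5-fold and 1 higher, Kcnf1 at 1.91. Fewer nuclei of a type and less RNA in each of them cannot be told apart in values over all nuclei.

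**Figure D3:**
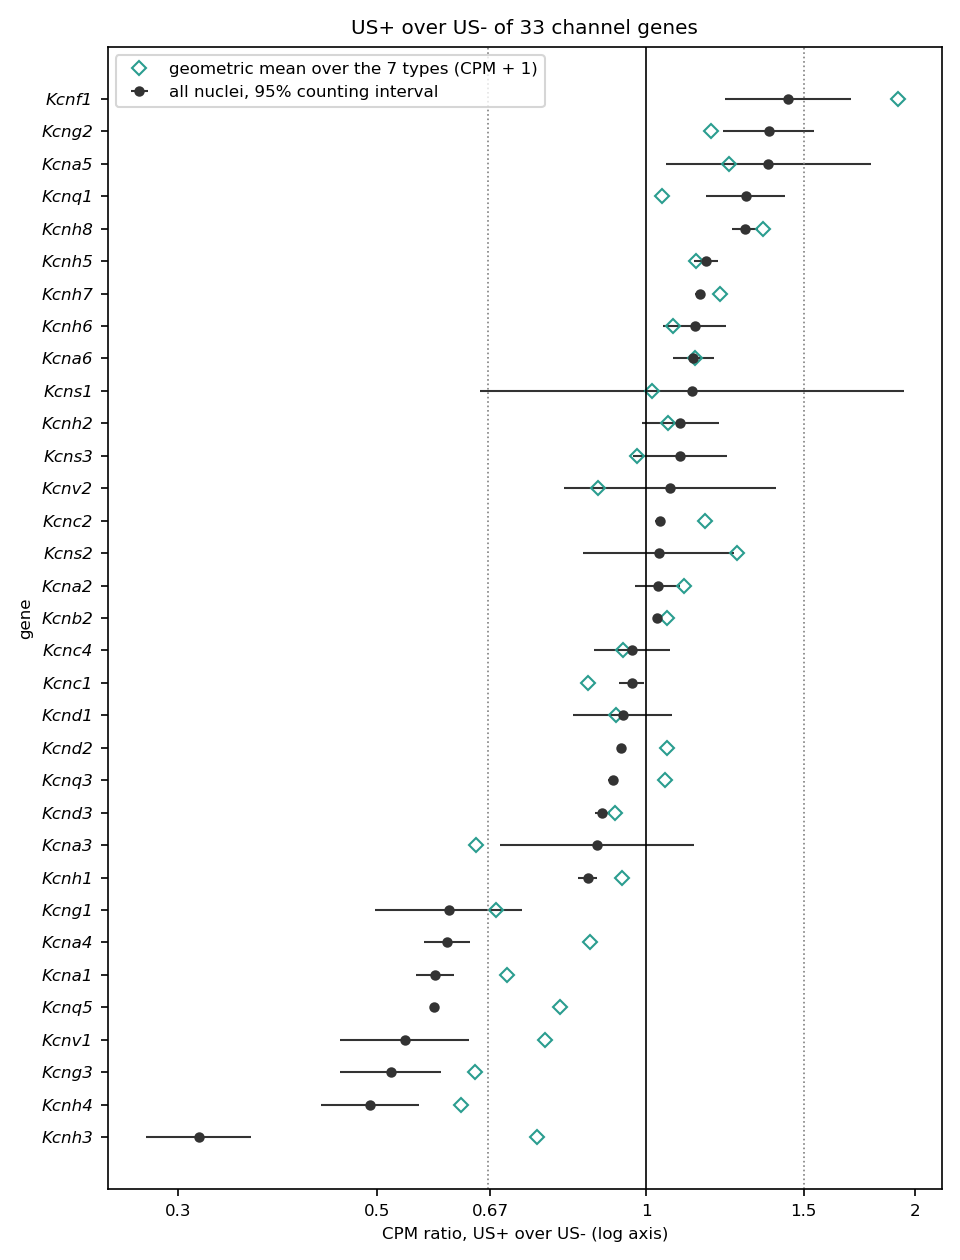
Ratio of CPM in US+ over US- (log axis) for 33 of the 37 channel genes with at least 50 UMIs. Black points are all nuclei with exact 95% intervals for counting error, and open diamonds the geometric mean over the 7 types with 1 CPM added. Dotted lines mark 1.5-fold in either direction. Of the 8 genes whose points lie left of the lower line, Kcnh4 and Kcng3 also have their diamond there.

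Within types, Rarb/Drd1 nuclei had 4 channel genes higher and 8 lower by 1.5-fold or more in US+ of 31 with at least 50 UMIs, where 6.27% and 9.72% of all genes were. Rarb/Drd2 nuclei had 3 and 8 of 26 (7.83% and 8.91%). Lhx6/Sox6 nuclei had 2 and 3 of 23 (2.97% and 3.31%), Lhx8 nuclei 0 and 2 of 29 (2.59% and 2.42%), and Esr1 nuclei 2 and 1 of 27 (3.46% and 2.01%). Skor2/Slc17a6 nuclei had 2 and 1 of 13 (4.94% and 6.23%), and Tcf7l2/Slc17a6 nuclei 0 and 1 of 18 (5.07% and 4.6%).

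In both Rarb/Drd types, Kcnc2, Kcnh7 and Kcnh8 stood higher in US+, and Kcnq5, Kcna1, Kcnh3, Kcnh4 and Kcnv1 stood lower. Kcnc2 had been called lower in both types, Kcnh7 and Kcnh8 only in Rarb/Drd1 nuclei, and the other genes higher in both. These calls used the same 2 libraries as the ratios, so calls and ratios are not independent. The calls of Kcnv1 rested on US-, and Kcna1 in US+ lay within the range of the other types. Kcnh5, high in Rarb/Drd1 nuclei, was at 1.08 (0.972 to 1.19) in them, and Kcnf1, also called higher there, stood higher in US+ at 1.84 (1.11 to 3.01). In Rarb/Drd2 nuclei the US+ over US- ratio of Kcnc2 was 2.15 (1.95 to 2.37) and that of Kcnh7 was 1.58 (1.48 to 1.69). That of Kcnh8 was 1.53 (1.19 to 1.95). In Rarb/Drd1 nuclei they were 1.38 (1.27 to 1.50), 1.51 (1.40 to 1.62) and 1.65 (1.28 to 2.12). Kcnq5 stood at 0.702 (0.684 to 0.720) in Rarb/Drd1 and 0.660 (0.640 to 0.680) in Rarb/Drd2 nuclei, and Kcna1 at 0.531 (0.442 to 0.635) and 0.513 (0.417 to 0.626). Kcnh3 stood at 0.569 (0.418 to 0.764) and 0.385 (0.255 to 0.562), Kcnh4 at 0.454 (0.305 to 0.657) and 0.564 (0.376 to 0.825), and Kcnv1 at 0.273 (0.127 to 0.520) and 0.398 (0.198 to 0.733).

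Markers of these types were at other levels in US+ too. Rarb was at 1476 (US-) and 1121 CPM (US+) in Rarb/Drd1 nuclei and at 1379 and 974 CPM in Rarb/Drd2 nuclei, and Drd2 was at 326 and 193 CPM in the latter. Rgs9 was at 421 and 246 CPM and Ppp1r1b at 41.8 and 19.1 CPM in Rarb/Drd2 nuclei, while Penk was at 272 and 459 CPM. The part of these marker differences in the channel ratios was not tested.

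Outside the Rarb/Drd types the values varied. In Esr1 nuclei Kcnq5 stood at 0.997 (0.956 to 1.04), Kcna1 at 0.995 (0.783 to 1.27), Kcnc2 at 0.953 (0.908 to 0.999) and Kcnh7 at 0.970 (0.928 to 1.01), while Kcnh8 stood at 0.827 (0.750 to 0.911) and Kcnh4 at 0.616 (0.387 to 0.984). Kcnq5 was as low as in Rarb/Drd1 nuclei in Skor2/Slc17a6 nuclei, at 0.702 (0.582 to 0.844), and stood at 0.774 (0.694 to 0.862) in Tcf7l2/Slc17a6 and 0.928 (0.869 to 0.991) in Lhx6/Sox6 nuclei. In Lhx8 nuclei Kcnq5 stood at 0.914 (0.874 to 0.955), Kcnh7 at 0.995 (0.965 to 1.03), Kcnh8 at 1.48 (1.36 to 1.61) and Kcng3 at 0.469 (0.326 to 0.663). Chat stood there at 73.8 and 45.3 CPM, and its part in these ratios was not tested. In Lhx6/Sox6 nuclei Kcnh5 stood at 1.62 (1.29 to 2.04) and Kcna1 at 0.587 (0.455 to 0.752). Whether the ratios differ between types could not be tested with 1 library per condition.

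**Figure D4:**
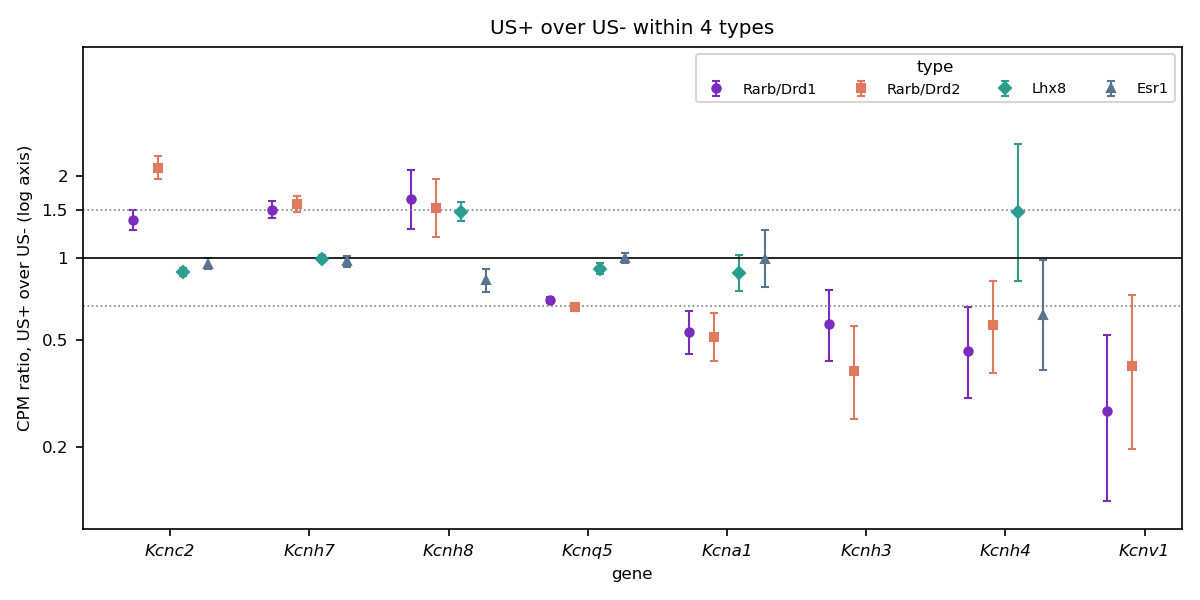
Ratio of CPM in US+ over US- (log axis) for 8 channel genes within Rarb/Drd1, Rarb/Drd2, Lhx8 and Esr1 nuclei, where the gene had at least 50 UMIs over both libraries. Bars are exact 95% intervals for counting error and dotted lines mark 1.5-fold. Kcnc2, Kcnh7 and Kcnh8 lie above 1 and Kcnq5, Kcna1, Kcnh3, Kcnh4 and Kcnv1 below 1 in both Rarb/Drd types. The 8 genes were not chosen by a rule set beforehand. Genes called higher in Rarb/Drd1 nuclei but not shown stood there at 0.709 (Kcna4), 0.803 (Kcnh1), 0.802 (Kcng3), 1.08 (Kcnh5) and 1.84 (Kcnf1).

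The 6075 US- and 6859 US+ nuclei that met none of the 7 types were compared in the same way. In them 36 channel genes had at least 50 UMIs, and the median US+ over US- ratio was 0.992. At 1.5-fold or more, 0 were higher and 6 lower in US+, where 5.55% and 2.57% of 18690 genes were. The 6 were Kcnh3 at 0.323 (8.33 and 2.69 CPM), Kcnv1 at 0.562, Kcnh4 at 0.579, Kcna1 at 0.639, Kcnq5 at 0.643 and Kcna4 at 0.648. All 6 are among the 8 that were lower over all nuclei. In these nuclei Rarb stood at 267 (US-) and 100.2 CPM (US+), and its part in these ratios was not tested.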

How the data were processed

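The deposited matrices hold counts, UMIs per gene and nucleus, made by the authors from the reads (Cell Ranger 6.1.1, mm10, per the labels) and not scaled per nucleus. The study ran it with default parameters, names no setting for introns, and equalized the libraries to the less saturated one. The libraries held 101948623 (US-) and 95029281 UMIs (US+). The gene and mitochondrial filters follow the study. No doublet caller was run, and nuclei meeting several types were left out. A type needed at least 1 UMI of each marker, or 3 of Esr1. Sums were fitted with edgeR 4.0.16 (R 4.3.3, filterByExpr, TMM, robust quasi-likelihood) without the defining markers. DESeq2 1.42.0, other scalings, filters, marker limits and thinning were alternatives. Exact intervals (scipy 1.17.1) cover counting error only. Named were the 14 genes with the largest ratio between types and at least 500 UMIs, the 4 highest and 4 lowest US+ over US- ratios with at least 100 UMIs, and the 5 auxiliary genes with the largest ratio and at least 500 UMIs. Some genes that enter the counts are not reported here. The genes and lists were chosen with earlier results of these data known. The fits were tested on simulated data. Coordinates are those of GENCODE M21 (GRCm38), and promoters are from RefSeq.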

Additional observations from a re-analysis of the deposited data

How the results depend on the processing

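The count of 22 channel genes called among types ranged from 20 to 26 over the other settings that keep both libraries and all types. With 1 library, 19 and 22 of these 22 genes kept a 2-fold range between types by size alone. That check has no test and cannot add genes. The auxiliary count was 13 in the 3 other fits run for it. Without the library as replicate block, with no pairing of animals behind it, the channel count was 20, and the 39 calls of single types were 36. Fits without types were chosen after the data were seen. Without both Rarb/Drd types 7 genes were called among types. That fit made 5 single-type calls, 1 in Lhx6/Sox6, 1 in Lhx8, 3 in Esr1 and 0 in Skor2/Slc17a6 nuclei. For these and the other alternative counts of single types, the share over all genes was not counted. They are therefore not set against a background. Of the single-type calls of the main fit outside the Rarb/Drd types, it kept 1, Kcng3 in Esr1 nuclei, and lost 12. Without the Skor2/Slc17a6 sums Lhx6/Sox6 nuclei had 5. With 1 library each, 18 to 35 of the 39 single-type calls stayed at 2-fold by size alone, which cannot add calls. Those that stayed were 5 to 11 in Rarb/Drd2, 1 and 1 in Lhx6/Sox6, 1 to 4 in Lhx8, 0 to 5 in Esr1 and 0 and 0 in Skor2/Slc17a6 nuclei. Counting nuclei in every type they met gave 1 in Lhx8, 2 in Esr1 and 2 in Skor2/Slc17a6 nuclei, and thinning gave 2 in Esr1. The single call in Skor2/Slc17a6 nuclei became 2 with at least 2 UMIs of each marker, 0 with DESeq2 size factors, 4 with no filter on low counts and 3 with adjustment over all contrasts. Between Rarb/Drd1 and Rarb/Drd2, 1 gene was called with at least 2 UMIs of each marker and 1 with at most 5000 genes. Of the 39 calls, DESeq2 kept 36, and counting nuclei in every type 23. Thinning kept 23 of the 30 that could still be tested, and under it Kcng3 in Lhx6/Sox6 nuclei turned to 0.34 (adjusted p = 0.91). Over all nuclei, thinning put 2 genes at 1.5-fold higher in US+, and the geometric mean over types 1 higher and 3 lower. The median share of nuclei with a UMI over the 14 named genes was 5.23% thinned and 21.7% unthinned. The causes were not tested. Skor2/Slc17a6 sums rest on 47 and 39 nuclei, where 3 UMIs are 6.31 and 7.49 CPM.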
